A study of Homo sapiens with 26 samples.

Results

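The comparison described here is between 10 h and 1 h of Nutlin-3a treatment in the H3K4me1 ChIP-seq peak lists of wild-type HCT116 cells. H3K4me1 is histone H3 mono-methylated at lysine 4. Its members were taken by label: the 2 lists (BR1 and BR2) at 1 h and the 2 lists at 10 h, 4 of the 16 libraries with a peak list and of 26 libraries in all. The 2 H3K4me1 lists of the same cells in DMSO (0 h) were used as the starting point from which changes at 1 h were followed to 10 h, and the 6 H3K27ac lists of the same cells and times as a second readout. Peaks of the 6 H3K4me1 lists that overlapped were merged into 110269 regions, of which 104535 were called in at least 1 of the 4 lists. Every group used here is labelled wild type, the same cells that were treated or given DMSO. HCT116 is 1 established line, so BR1 and BR2 are samples of that line and not of different people, and a p-value measures the spread between those samples.

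H3K4me1 is laid down mainly by the methyltransferases KMT2C and KMT2D, and it marks enhancers, whether active or primed, as well as the flanks of active promoters. At an active promoter the start site itself carries H3K4me3, and H3K4me1 sits on either side of it. H3K27ac is added at enhancers and promoters that are in use, so the marks together tell primed from active elements. Nutlin-3a blocks the pocket of MDM2 that holds p53, and p53 then accumulates and binds response elements made of a pair of decamers, many of them at distal enhancers. HCT116 is a colon carcinoma line with wild-type p53.

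The lists differed from each other as whole lists, and these values stand beside every result that follows. At 1 h they held 92943 and 86750 peaks covering 212 and 198 Mb, at 10 h 84492 and 89231 peaks covering 168 and 188 Mb, and at 0 h 91730 and 86207 peaks covering 196 and 178 Mb. Median peak width was 1248 and 1269 bp at 1 h, above the 1122 and 1160 bp at 10 h and the 1166 and 1152 bp at 0 h. The strongest peak reached a −log10 p of 641 and 404 at 1 h, against 94.4 to 133 in the other 4 lists. The share of bases covered in common, over bases covered in either, was 0.742 between the 1 h lists and 0.773 between the 10 h lists, and 0.679 to 0.728 between a 10 h and a 1 h list. The lists carry no read counts, so the depth of the libraries is unknown here, and an effect of treatment time on H3K4me1 and a technical difference of the 1 h libraries cannot be told apart. Nor can fewer cells with a mark be told apart from less of the mark per cell. The 10 h lists shared 0.732 to 0.775 with the 0 h lists, above every pair of a 10 h with a 1 h list. Of 10 epithelial marker genes, 8 or 9 had H3K4me1 within 5000 bp of their start site in each list, summing to 64878 to 70226 bp, with VIL1 or LGALS4 or both at 0. Of 9 markers of other lineages, 6 were covered in each list, summing to 12638 to 15379 bp, and PTPRC, CD3E and VWF were at 0 in every list.

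Between 1 h and 10 h, 3211 regions were gained (called in both 10 h lists and neither 1 h list), which is 2.91% of all 110269 regions. The lost regions (both 1 h lists, neither 10 h list) numbered 5125, or 4.65%, and 62292 regions were kept in all 4 lists. Lost regions made up 6.97% of the 73541 regions in both 1 h lists, and gained regions 22.0% of the 14587 regions in neither. A further 33907 regions were called in some other combination of the 4 lists. Replicates of 1 time disagreed at many regions: 22141 regions were called in only 1 of the 1 h lists and 16048 in only 1 of the 10 h lists, both more than the number gained or lost. No exact permutation test over 2 lists against 2 can reach p = 0.05, so these counts carry no test. Where presence was asked for at a −log10 q of at least 5, 184 regions were gained and 28 lost, so the order of the counts turned. Leaving out 1 list, so that the remaining list of that time decided alone, raised both counts: gained regions to 5468 or 4468 without BR1 or BR2 at 1 h and to 7197 or 4867 without BR1 or BR2 at 10 h, and lost regions to 10082 or 14513 and to 6670 or 9704.

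Gained regions lay low in the 10 h lists, with a median percentile by peak strength of 19.0 and 24.8 (100 being the strongest region of a list). Lost regions had a median percentile of 20.3 and 15.8 in the 1 h lists. Kept regions were wide, with a median of 2277 bp, against 690 bp for gained and 813 bp for lost regions. Only 5.57% of gained and 6.34% of lost regions touched a promoter, against 29.6% of kept regions, while introns held 51.6% of gained, 52.0% of lost and 32.4% of kept regions. Both kinds of change were thus mostly at weak, narrow regions away from promoters. The 33907 regions called in some other combination of the 4 lists were alike. Their median width was 610 bp, 5.92% touched a promoter and 53.4% lay in introns. These traits were therefore not particular to gained or lost regions.

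The sequences of the strongest changed regions are shown first, with capitals marking any p53 half-site decamer or AP-1 motif TGANTCA (both strands searched, hg19 plus strand). The first gained region (chr1:51075934-51077432) lies in an intron of FAF1, nearest to the start site of DMRTA2, and reached percentile 86.1 and 86.3 at 10 h. It was absent from both 1 h lists and stood at percentile 0.120 in 1 of the 0 h lists. The next (chr14:34504304-34505532) is intergenic, 84.0 kb from the start site of EGLN3, a prolyl hydroxylase of the hypoxia response, and reached 80.9 and 83.3. The lost region of highest percentile (chr2:33141295-33141711) lies in an intron of LINC00486 and stood near the top of both 1 h lists (percentile 100.0 after rounding, −log10 p of 210 and 184), yet it was called in no 0 h or 10 h list. Its central 60 bases are shown: 59 of them are G, and its middle 300 bp is 96.7% G or C. The same interval had an H3K27ac peak in both 1 h lists and in neither 10 h list.
DMRTA2 chr1:51076533-51076832: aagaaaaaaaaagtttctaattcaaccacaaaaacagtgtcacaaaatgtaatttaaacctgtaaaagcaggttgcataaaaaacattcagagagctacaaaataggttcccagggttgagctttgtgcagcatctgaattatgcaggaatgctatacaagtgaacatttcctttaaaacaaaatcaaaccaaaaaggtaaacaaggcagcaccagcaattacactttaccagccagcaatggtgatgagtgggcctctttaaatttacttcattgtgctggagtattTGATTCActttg
EGLN3 chr14:34504768-34505067: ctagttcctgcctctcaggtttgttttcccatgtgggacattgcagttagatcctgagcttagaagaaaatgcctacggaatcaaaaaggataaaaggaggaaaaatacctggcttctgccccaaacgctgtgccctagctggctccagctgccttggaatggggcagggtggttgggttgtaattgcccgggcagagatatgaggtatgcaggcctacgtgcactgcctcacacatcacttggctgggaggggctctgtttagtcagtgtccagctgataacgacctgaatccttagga
LTBP1 chr2:33141473-33141532: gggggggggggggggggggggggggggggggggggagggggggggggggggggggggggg

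The other gained regions with the highest percentiles lay in an intron of TBCD (81.4 and 78.8 at 10 h), in an exon of DGKH (71.2 and 82.8) and in an intergenic stretch of chromosome 13 (chr13:65837750-65839075, 80.7 and 73.2). TBCD encodes a tubulin-folding cofactor and DGKH a diacylglycerol kinase. The TBCD and DGKH regions were in both 0 h lists, at 7.46 and 11.6 and at 13.6 and 21.4, so they were called before treatment, missing at 1 h and at higher percentiles at 10 h. Other lost regions of high percentile lay near FAM27E2 (73.0 and 71.1 at 1 h), on chromosome 7 (chr7:65032907-65033758, 67.4 and 60.2) and in an intron of CAMKMT (69.0 and 58.1). The middle of the CAMKMT region was 80.3% G or C, and it too had H3K27ac in both 1 h lists and neither 10 h list. Over all lost regions the median G and C content was 45.0%, below the 46.7% of all regions, so the composition of these strong examples was not that of lost regions in general.

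p53 half-site decamers were frequent in the middle of gained regions. The decamer was found in the middle 300 bp of 803 gained regions (25%), against 9.32% of all regions, 8.22% of kept and 7.65% of lost regions. A control decamer with the same core and the flanking purines and pyrimidines swapped was found in 11.2% of gained, 12.4% of kept and 13.2% of lost regions, so its share was not raised in gained regions. Matches of the p53 decamer peaked at the middle of gained regions, with 108 and 110 per 1000 regions in the 100 bp bins on either side, and fell away to 24.9 and 22.7 at 950 bp. In kept regions the central bins held 29.2 and 30.6, close to the 27.6 in the bins at 950 bp on either side. Gained regions ranked higher at 10 h held the decamer more often: in 5 equal groups from weakest to strongest by mean 10 h percentile the share was 16.5, 21.3, 23.8, 27.6 and 35.8%. Among gained regions also called in both 0 h lists the share was 13.8%, and among those in 1 of them 19.6%. A match is a description of the letters, not a measured binding site.

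**Figure D1:**
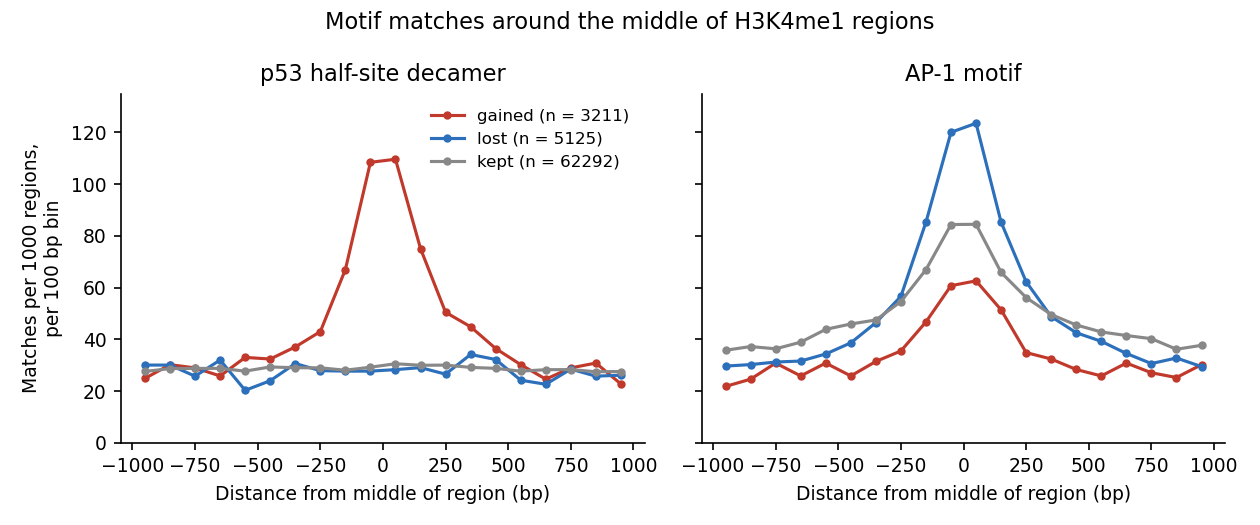
Matches of the p53 half-site decamer (left) and of the AP-1 motif TGANTCA (right) per 1000 regions in 100 bp bins, against distance from the middle of the region in bp, for 3211 gained, 5125 lost and 62292 kept regions. The p53 decamer peaks at 108 and 110 in the central bins of gained regions and is nearly flat in the other 2 classes, while the AP-1 motif peaks in all 3 classes and is highest in lost regions, at 120 and 124.

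A full response element, here a pair of decamers with a spacer of at most 13 bp, was found in 98 gained regions (3.05%) and 6 lost regions (0.117%), against 621 of all regions (0.563%) and 412 kept regions (0.661%). Per megabase of region this was 38.6 in gained, 1.19 in lost and 1.86 in kept regions. The 98 regions held 102 elements, 68 of them with no spacer and 15 with a spacer of 1 bp, at a median of 92.3 bp from the middle of the region. Counted list by list, regions with a full element numbered 456 and 439 at 0 h, 458 and 441 at 1 h, and 553 and 583 at 10 h. The 10 h lists were the highest although BR1 at 10 h had the fewest regions of all 6 lists. A pair of intergenic examples, chosen after their values were seen, are printed with their surroundings to show how the element sits near the middle. One is 19.1 kb from the start site of CRMP1, which encodes a protein of axon guidance, and the other is far from any gene, PCDH10 being the nearest. Capitals mark the paired decamers.
CRMP1 chr4:5914326-5914625: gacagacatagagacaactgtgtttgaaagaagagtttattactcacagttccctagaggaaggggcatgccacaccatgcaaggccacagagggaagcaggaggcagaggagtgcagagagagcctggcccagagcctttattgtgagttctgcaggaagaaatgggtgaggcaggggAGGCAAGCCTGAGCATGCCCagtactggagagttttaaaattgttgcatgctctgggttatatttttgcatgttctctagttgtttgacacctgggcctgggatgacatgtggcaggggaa
PCDH10 chr4:132731694-132731993: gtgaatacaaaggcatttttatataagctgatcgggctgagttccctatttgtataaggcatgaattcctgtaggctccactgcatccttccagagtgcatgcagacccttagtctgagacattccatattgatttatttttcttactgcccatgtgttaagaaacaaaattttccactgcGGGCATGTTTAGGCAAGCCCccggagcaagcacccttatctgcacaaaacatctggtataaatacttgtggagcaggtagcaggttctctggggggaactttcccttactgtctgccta

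The elements themselves are given for 7 of the strongest gained regions with a full element, also chosen after their values were seen. Each is named by its nearest gene, and capitals again mark the decamers, with the spacer in lower case. None of these 7 regions was called at 1 h. The region near CRMP1 reached percentile 59.1 and 71.4 at 10 h, the one near PCDH10 51.5 and 73.7, and both had H3K27ac in both 10 h lists and neither 1 h list. The region at SHFL, which encodes an interferon-induced inhibitor of ribosomal frameshifting, reached 61.4 and 71.3. CEMIP (50.8 and 72.8) encodes a hyaluronan-binding protein and MSI2 (46.7 and 76.6) an RNA-binding protein. The regions near DLEU7 (55.5 and 62.8) and C18orf21 (51.1 and 66.4) completed the set. H3K27ac was in 1 of the 10 h lists at SHFL, MSI2, DLEU7 and C18orf21 and in neither at CEMIP. The BR2 value was above the BR1 value in every one of the 7. The region near DLEU7 was called in both 0 h lists at percentiles 0.825 and 0.906, among the weakest of those lists. At 0 h the region near CRMP1 was called in BR2 (percentile 8.56) and the one near CEMIP in BR1 (4.98). Those at SHFL, PCDH10, MSI2 and C18orf21 were in no 0 h list.
SHFL chr19:10200070-10200094: AGGCTAGCCTcactcAGGCAAGCCC
CRMP1 chr4:5914505-5914524: AGGCAAGCCTGAGCATGCCC
PCDH10 chr4:132731875-132731894: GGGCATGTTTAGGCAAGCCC
CEMIP chr15:81054283-81054303: GAACTTGCCCgGAGCTTGCCC
MSI2 chr17:55273679-55273698: GGGCTAGCCTAGGCTTGTTC
DLEU7 chr13:51033773-51033792: GAACAAGCCTGGGCTAGCCT
C18orf21 chr18:33442215-33442235: AGGCTTGCCTaAGACATGCCC

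H3K27ac, which the choice of gained and lost regions did not use, was also more often present at gained regions at 10 h. A peak of H3K27ac overlapped 2.34 and 2.40% of gained regions at 0 h, 2.18 and 3.33% at 1 h, and 18.6 and 18.3% at 10 h. The 10 h lists stood apart from the other 4, which overlapped each other. The number of gained regions in both lists of a time went from 30 (0.934%) at 1 h to 471 (14.7%) at 10 h. Among the 98 gained regions with a full element, 3.06% were in both H3K27ac lists at 1 h and 37.8% at 10 h. Lost regions carried little H3K27ac at either time, 0.742% at 1 h and 2.03% at 10 h in both lists. Kept regions stayed at 40.3 to 42.2% in every 1 h and 10 h list. The share in both lists also rose in the remaining classes. It went from 0.105% at 1 h to 1.69% at 10 h in regions called in none of the 4 H3K4me1 lists. In regions called in some other combination of those lists it went from 0.613% to 2.97%. A rise was therefore not particular to gained regions, though their 14.7% at 10 h stood above the shares of these classes and of lost regions. The H3K27ac share also followed the strength of the gained regions, from 9.33% in the weakest of 5 groups to 22.4% in the strongest. Without BR1 at 10 h, so that calls in BR2 alone sufficed for H3K4me1, the share in both 10 h H3K27ac lists was 9.32%. Peak names carry the word input in both 10 h H3K27ac lists and in BR2 at 1 h, and not in BR1 at 1 h or at 0 h, and a part of this difference in the shares was not tested.

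**Figure D2:**
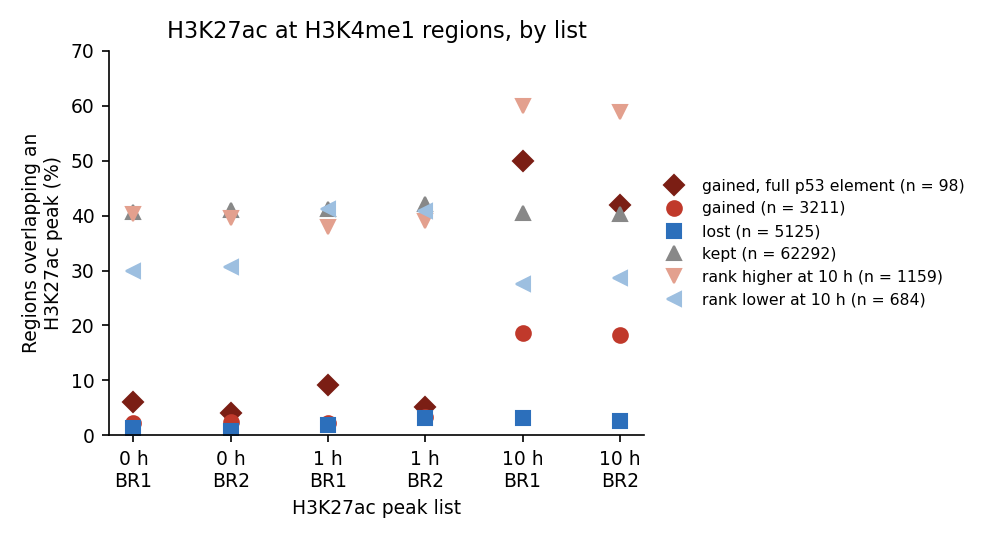
Share of H3K4me1 regions overlapped by an H3K27ac peak (percent, vertical axis) in each of the 6 H3K27ac lists (horizontal axis), 1 point per class of region and list. Gained regions go from 2.18 and 3.33% at 1 h to 18.6 and 18.3% at 10 h, those with a full p53 element reach 50.0 and 41.8%, and lost regions stay at or below 3.16% in every list.

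Lost regions differed from kept and gained regions in the AP-1 motif TGANTCA, the letters bound by FOS and JUN dimers. It was found in the middle of 28.9% of lost regions, against 22.0% of all, 20.5% of kept and 15.9% of gained regions. Other classes came close to the lost share. It was 29.5% in regions gained at 1 h against 0 h and in 1 of the 10 h lists. In regions lost at 1 h against 0 h and in 1 of the 10 h lists it was 26.3%. Regions called in some other combination of the 4 lists had 24.4%. In the central 100 bp bins lost regions held 120 and 124 matches per 1000, kept regions 84.4 and 84.5 and gained regions 60.7 and 62.6. The share rose with the strength of the lost regions at 1 h, from 22.5% in the weakest of 5 groups to 34.2% in the strongest. List by list the motif was in 22.0 and 22.1% of regions at 1 h, 20.6 and 21.2% at 10 h and 21.7 and 21.6% at 0 h, so the spread across whole lists was small.

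At MDM2, the p53 target that encodes the ligase blocked by Nutlin-3a, 3 regions inside the gene were gained: chr12:69211328-69215880, chr12:69230863-69236127 and chr12:69236938-69240094. None was called in a 0 h or 1 h list. Peaks covered 565 and 4553 bp of the first at 10 h, 1681 and 5079 bp of the second, and 373 and 3157 bp of the third, so BR2 was the wider list at all 3. They were weak regions, between percentile 0.0545 and 15.5. H3K27ac was present in both 10 h lists at all 3, and at 1 h in 1 list at the first only. Near BBC3, which encodes the cell-death protein PUMA, chr19:47721102-47722929 and chr19:47739701-47742558 were gained, the second at percentile 57.8 and 54.6, and both had been called in at least 1 of the 0 h lists. Single gained regions lay at XPC and NINJ1. The list of 44 p53 targets was nearest to 275 regions, of which 8 were gained (2.91%) and 5 lost (1.82%), beside 2.91% and 4.65% of all regions, so the gained share matched that of all regions.

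The other gene lists are given by the regions nearest to their members, beside 2.91% gained and 4.65% lost over all regions. Of 387 regions nearest to immediate-early genes 7 were gained and 15 lost, of 140 for G2/M genes 3 and 5, and of 159 for G1/S and replication genes 5 and 3. Of 380 regions at intestinal transcription factors 7 were gained (1.84%) and 23 lost (6.05%), and of 321 at Wnt targets 5 and 14. Of 125 regions at enzymes of H3K4 methylation 4 were gained and 2 lost, of 43 at epithelial markers none and 1, and of 90 at other-lineage markers 1 and 5. At KLF5, an intestinal transcription factor, 3 regions were gained. A gained region near AXIN2, a Wnt feedback inhibitor, held 2 p53 decamers in its middle (chr17:63565296-63566153, percentile 22.8 and 53.8 at 10 h). No list was tested as a set.

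Ranks were compared at the 60476 regions called in all 6 lists, so regions that were gained or lost are not among them. Each region was ranked in each list by its strongest −log10 p and the rank turned into a normal score, on which 0 is the middle of the list and 1 is about 1 SD above it. With limma over the 6 lists and Benjamini-Hochberg adjustment, 1159 regions (1.92%) ranked higher at 10 h than at 1 h and 684 (1.13%) ranked lower, with a median change of +1.15 and −0.98 among them. At an unadjusted p under 0.05 limma passed 5782 and 5592 regions. The 10 h scores were both above the 1 h scores at 14387 regions (23.8%) and both below at 15195 (25.1%). The number called rested on each list: without BR1 or BR2 at 10 h it was 112 or 262 higher and 53 or 207 lower, and without BR1 or BR2 at 1 h 505 or 486 higher and 88 or 102 lower, with the lone list assumed to vary like the other groups. Ranked by fold enrichment instead of p, 190 ranked higher and 34 lower.

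Among regions that ranked higher, those of smallest p that are reported here lay near GOLGA6D, ACTB, SZRD1 and NOTCH1. The promoter of ACTB, which encodes beta-actin (chr7:5564788-5569337), moved from 0.21 and 0.29 at 1 h to 1.89 and 2.11 at 10 h, having been at 0.65 and 0.83 at 0 h. Its difference was 1.75 ± 0.17 (SE, n = 2 lists per time, limma adjusted p = 0.00015), and H3K27ac was present in both lists at both times. Differences at the regions near GOLGA6D (2.46), in an exon of SZRD1 (2.55) and 50.7 kb from NOTCH1 (2.38) were larger. In these 4 the 1 h scores were the lowest of the 3 times and the 10 h scores the highest, with no overlap between 1 h and 10 h.

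Those that ranked lower had been raised at 1 h. An exonic region of MCF2L, which encodes a guanine nucleotide exchange factor (chr13:113718003-113724354), had scores of 1.79 and 1.44 at 0 h, 3.63 and 3.46 at 1 h, and 1.24 and 1.43 at 10 h. The difference from 1 h to 10 h was −2.21 ± 0.16 (SE, limma adjusted p = 4.2e-05). A region of CLPTM1L (chr5:1325836-1331553) went from −0.02 and 0.04 at 0 h to 2.38 and 2.37 at 1 h and −0.51 and 0.15 at 10 h. The regions 168 kb from FAM20C (−1.98), in EMC10 near GARIN5A (−1.87) and in an intron of PRDM15 (−2.41) followed the same course. All 5 had been called higher at 1 h against 0 h in the same fit. Ranked by fold enrichment, the region 168 kb from FAM20C was no longer called lower at 10 h (−1.32, limma adjusted p = 0.16).

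Near members of the p53 target list, ranks moved both ways. Of 155 ranked regions nearest to p53 targets 5 ranked higher and 3 lower, beside 1.92% and 1.13% of all ranked regions. The promoter of RRM2B, a subunit of ribonucleotide reductase induced by p53, rose from 0.69 and 0.39 at 1 h to 1.83 and 1.47 at 10 h (difference 1.11 ± 0.19, SE, limma adjusted p = 0.0056). The promoter of PLK2, a kinase of the stress response (chr5:57753031-57758949), rose from 0.16 and 0.20 to 0.94 and 0.99 and holds a full p53 element. The promoters of CCNG1 (0.94) and of a transcript nearest to ASCC3 (1.01) and an exonic region near BBC3 (0.91) also ranked higher. At CCNG1 the region held 1 peak in both 1 h lists (3780 and 3815 bp) and 2 in both 10 h lists (2482 and 2000 bp). Its rank at 10 h is that of the stronger peak, and no peak covered the CCNG1 start base in either 10 h list. The region over the promoter of BAX, which encodes a pore-forming protein of mitochondrial cell death (chr19:49456786-49471297), fell from 2.44 and 2.47 to 1.55 and 1.62. That region is 14512 bp wide, also overlaps FTL and held 2 peaks in both 1 h lists. Its rank is that of its strongest peak, which need not lie at BAX. A region in an intron at ZMAT3 (−1.35) and 1 at 143 kb from PMAIP1 (−1.44) fell too, and the latter had H3K27ac in both 1 h lists and neither 10 h list.

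In other lists the values at single regions were larger. An intergenic region 152 kb from SOX9, an intestinal stem-cell factor (chr17:70269221-70270570), rose from −1.23 and −1.13 at 1 h to 0.98 and 1.37 at 10 h (2.36 ± 0.30, SE, limma adjusted p = 0.00094), from −1.44 and −0.56 at 0 h. It holds a p53 decamer in its middle. Regions at MCM5, a subunit of the replicative helicase (2.12), CDC25C, a mitotic phosphatase (1.84), and ATF3, a stress-induced transcription factor (0.86), also rose, and 1 at KIF2C, a mitotic kinesin, fell (−0.90). Beside the 1.92% and 1.13% of all ranked regions that rose and fell, 6 rose and 2 fell among 195 at intestinal transcription factors, 7 and 2 among 166 at Wnt targets, 2 and 1 among 229 at immediate-early genes, 2 and 1 among 79 at G2/M genes, and 2 and 0 among 103 at G1/S genes. Among 70 at H3K4 methylation enzymes 2 rose and 0 fell, among 28 at epithelial markers 1 and 0, and among 51 at other-lineage markers 2 and 1.

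Regions with p53 letters shared the direction of the gained regions. Of 401 ranked regions with a full element, 31 ranked higher (7.73%) and 2 lower (0.499%), and of 4894 with a decamer in the middle 188 ranked higher (3.84%) and 39 lower (0.797%). Of 55582 with no decamer 1.75% ranked higher and 1.16% lower. Regions with the AP-1 motif went the other way, with 184 of 12304 higher (1.50%) and 207 lower (1.68%). H3K27ac overlapped 37.9 and 39.0% of the regions that ranked higher in the 1 h lists and 60.0 and 58.8% in the 10 h lists. For those that ranked lower it overlapped 41.2 and 40.8% at 1 h and 27.5 and 28.7% at 10 h, after 30.0 and 30.7% at 0 h. In both classes the 1 h and 10 h values did not overlap.

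Width was measured as the bases of a region covered by peaks, relative to the median of its list. No region changed width at a limma adjusted p under 0.05 in either direction (0.0% each, smallest adjusted p = 0.068), while 4597 were wider and 3854 narrower at an unadjusted p under 0.05. Without centring on the list median those counts were 1229 and 7826, so the balance turned with the scaling. Over the same 60476 regions, peaks covered a median of 1878 and 1780 bp at 1 h, 1481 and 1665 bp at 10 h and 1735 and 1587 bp at 0 h. The median ratio of 10 h to 1 h without that centring was 0.896. After centring, both 10 h widths lay above both 1 h widths at 18268 regions (30.2%) and below them at 10445 (17.3%). Broken regions, those with more than 1 peak, made up 7.13 and 7.55% at 1 h, 14.5 and 11.7% at 10 h and 11.6 and 13.2% at 0 h. The 1 h lists thus had the widest and least broken regions. Domains covered over 10 kb or more in both lists of a time numbered 2211 at 0 h, 2417 at 1 h and 2062 at 10 h. Of these 1972 were shared by 1 h and 10 h, 183 passed 10 kb at 1 h and in neither 10 h list, and 30 the reverse.

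The regions with the smallest p for width showed how far single values could move without passing the adjustment. In an intron of DIP2C (chr10:565398-568305) peaks covered 550 and 405 bp at 0 h, 330 and 321 bp at 1 h and 2903 and 2844 bp at 10 h. At the promoter of NUPR1, which encodes a small stress-induced chromatin protein (chr16:28548197-28551120), they covered 939 and 950 bp, then 328 and 438 bp, then 2671 and 2803 bp. At RGS5, a regulator of G-protein signalling (chr1:163140377-163145263), coverage was 617 and 499 bp at 0 h, 4439 and 3653 bp at 1 h and 399 and 486 bp at 10 h. At the promoter of ZBTB21 (chr21:43422992-43429477) it was 3806 and 2842 bp, then 5023 and 6325 bp, then 917 and 1001 bp. Each of these had an adjusted p of 0.068, as did the next in order, ASB15, MORN3 and DPYD among the wider and DYNC1I1, OSBPL10 and ADGRF1 among the narrower. At DIP2C and NUPR1 the 1 h lists were the lowest and the 10 h lists the highest, while at RGS5 the 1 h lists alone stood apart.

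Coverage within 5000 bp of the start site was compared for 14666 genes with limma, relative to the mean of each list. It was higher at 10 h for 7 genes (0.0477%) and lower for 1 (0.00682%), beside 3 higher at 10 h against 0 h (0.0205%). NUPR1 had 629 and 438 bp covered at 1 h and 3177 and 3990 bp at 10 h, from 1360 and 1220 bp at 0 h (difference 3561 ± 276 bp, SE, adjusted p = 0.016). KRTAP10-6 and KRTAP10-7, neighbouring genes of hair keratin-associated proteins whose windows overlap, had 353 and 0 bp and 353 and 309 bp at 1 h, and 2642 and 3118 bp and 1974 and 2233 bp at 10 h. SLC25A47, a mitochondrial carrier (difference 3442 ± 359 bp), and PADI4, a peptidylarginine deiminase and p53 target (3142 ± 334 bp), were the next. PPP6R2, a phosphatase subunit, was the gene that was lower, with 2313 and 2033 bp at 0 h, 6773 and 6381 bp at 1 h and 1705 and 2028 bp at 10 h (difference −4199 ± 345 bp, SE, adjusted p = 0.017). EID3, HS6ST1, RBL2 and RMND1 followed at adjusted p of 0.065 to 0.077. Leaving out either 10 h list or BR1 at 1 h left 0 genes called, and leaving out BR2 at 1 h left 2 higher and 4 lower. Without centring no gene was called, nor within 2000 bp of the start site.

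No member of the 9 gene lists passed that test. The direction of small differences depended on the scaling. CDKN1A, the cell-cycle inhibitor p21, had 9636 and 9026 bp covered at 1 h and 9033 and 9128 bp at 10 h, and GDF15, a stress cytokine, was covered over all 10001 bp in all 6 lists. MDM2 had 8370 and 5776 bp at 1 h and 10001 and 8786 bp at 10 h (difference 2832 ± 916 bp, SE, limma adjusted p = 0.27). TP53INP1, an autophagy protein induced by p53, had 3638 and 3826 bp at 1 h and 4879 and 6958 bp at 10 h (2698 ± 605 bp, SE, limma adjusted p = 0.16). At both the 10 h values lay above the 1 h values without passing the test. FAS, the death receptor, had 6211 and 6105 bp at 1 h and 3521 and 4611 bp at 10 h, and ATF3 had 5871 and 6722 bp and 7411 and 7650 bp. BTG2, CCNB1, CDK1, MCM2, SOX9 and AXIN2 had adjusted p of 0.37 to 0.99. Among p53 targets the smallest p belonged to CDIP1 (1656 and 846 bp to 3172 and 3196 bp) and SERTAD1 (5132 and 5825 bp to 8692 and 8781 bp), both at an adjusted p of 0.10 by limma. The 42 p53 targets tested had a median difference of +350 bp, beside +105 bp over all genes. Without centring both medians turned negative, at −161 bp and −406 bp. Small p in the other lists belonged to KLF10, MKI67, PLK1, LIG1, PCNA, GATA6, EPHB2, KMT2C, KMT2D, CDH1, KRT19 and COL3A1, at adjusted p of 0.20 to 0.46.

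At the start site itself H3K4me1 was covered less often at 10 h, in a comparison chosen after values were seen. The start base lay in a peak for 8914 and 8988 of 19785 coding genes at 1 h, 6690 and 7666 at 10 h and 7665 and 7140 at 0 h. Of the 8123 genes covered there in both 1 h lists, 905 (11.1%) were covered in neither 10 h list, and of the 10006 covered in neither 1 h list 81 (0.81%) were covered in both 10 h lists. Among the 44 p53 targets the start base was covered in 24 and 23 at 1 h and in 15 and 16 at 10 h, from 22 and 22 at 0 h, so here the 10 h values were below both earlier times. Of 21 covered in both 1 h lists 7 were covered in neither 10 h list (33.3%): BBC3, BTG2, CCNG1, DDB2, DRAM1, FAS and PHLDA3. Restricted to genes covered in both 0 h and both 1 h lists, it was 5 of 18 p53 targets (27.8%) and 128 of 6279 genes (2.04%). DDB2 takes part in DNA repair, DRAM1 in autophagy, PHLDA3 in restraint of AKT, and BTG2 in arrest of growth. Within 5000 bp of these start sites peaks were still present at 10 h, but over fewer bases at some: BBC3 went from 8190 and 7702 bp at 1 h to 6710 and 6607 bp, CCNG1 from 4089 and 3815 bp to 2482 and 2000 bp, and FAS from 6211 and 6105 bp to 3521 and 4611 bp. None of these passed the test of coverage. Of the 39 G1/S and replication genes none was lost in this way and 3 were newly covered, FEN1, MCM5 and RRM2. UBE2C, GATA6, TNFRSF19 and KDM5B were the other list members lost, and KLF10 was newly covered.

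**Figure D3:**
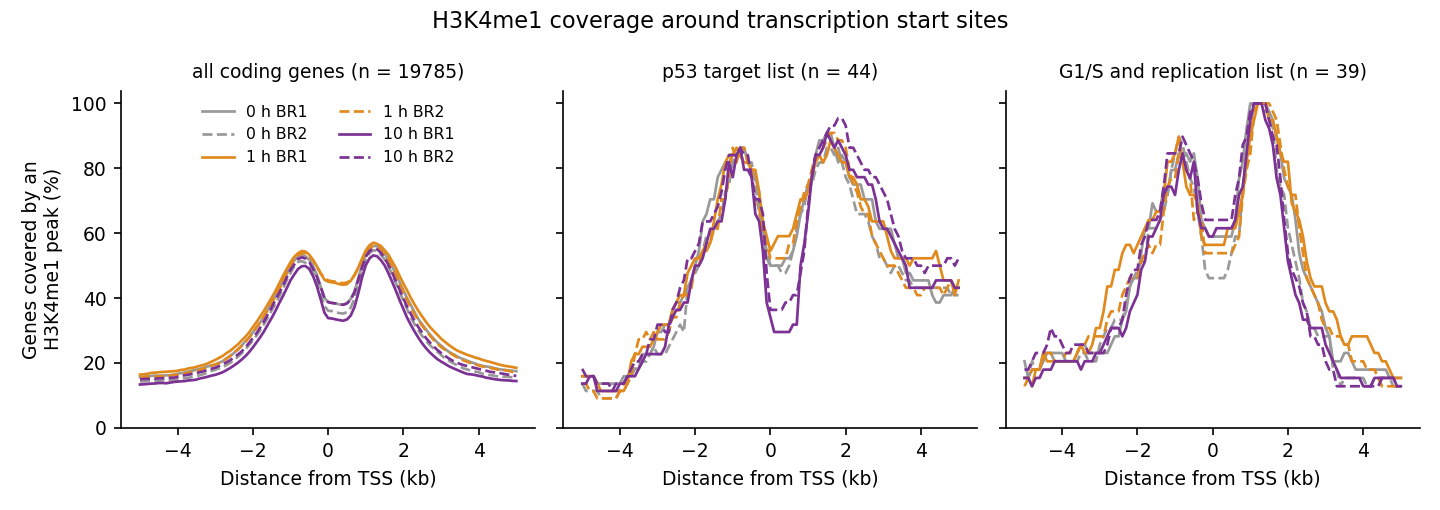
Share of genes covered by an H3K4me1 peak (percent, vertical axis) against distance from the start site in kb, for all 19785 coding genes, 44 p53 targets and 39 G1/S and replication genes, 1 line per list. At the start site of the p53 targets the 10 h lines reach 34.1 and 36.4%, below the 50.0 to 54.5% of the 0 h and 1 h lines.

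The changes seen at 1 h were then followed to 10 h, with the same 1 h lists on both sides of the comparison. Against 0 h, 3635 regions were gained at 1 h, and 2495 of them (68.6%) were in neither 10 h list, 794 (21.8%) in 1 and 346 (9.52%) in both. Of 1932 regions lost at 1 h, 578 (29.9%) were back in both 10 h lists, 680 (35.2%) in 1 and 674 (34.9%) in none. Regions called in both lists at 0 h and at 1 h were in both 10 h lists in 92.9% of cases (60476) and in neither in 1.53%. Gains at 1 h were thus mostly uncalled at 10 h, and losses were split about evenly between full, partial and no return. These regions were chosen by their 1 h calls, so part of a return is built in. Of regions in neither 0 h list and 1 of the 1 h lists, 85.9% were in neither 10 h list. Of regions in both 0 h lists and 1 of the 1 h lists, 47.6% were in both 10 h lists. With presence at a −log10 q of at least 5, 9 of 14 gains were gone and 11 of 15 losses back. The share of losses that came back was 14.0% without BR2 at 0 h, 20.5% without BR1 at 0 h and 53.7% without BR1 at 10 h. Among the strongest gains that were gone were the LINC00486 and FAM27E2 regions given above, and the strongest losses that came back were the TBCD and DGKH regions and an intronic region of PIWIL4-AS1 (chr11:94427074-94428536). That region stood at percentile 41.6 and 13.8 at 0 h and 74.0 and 78.8 at 10 h, and holds 2 p53 decamers in its middle. Gains at 1 h that lasted in both 10 h lists held the decamer in 15.3% of regions, and those that were gone in 8.50%. Seen from 10 h, 2036 of the 3211 gained regions had been in neither 0 h list, 597 in 1 and 578 in both, and of the 5125 lost regions 2495 had been in neither, 1632 in 1 and 998 in both. The larger part of the regions gained at 10 h were therefore not returns to calls made in both 0 h lists.

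**Figure D4:**
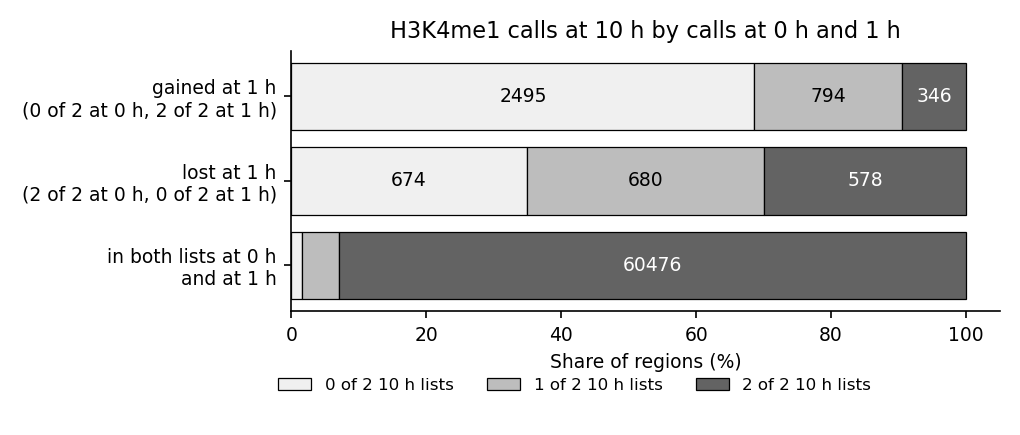
Share of regions (percent, horizontal axis) called in 0, 1 or 2 of the 10 h lists, for regions gained at 1 h (3635), lost at 1 h (1932), and called in both lists at 0 h and 1 h, with numbers of regions in the bars. Of the gains 2495 are in no 10 h list, of the losses 578 are in both, and of the regions called throughout 60476 are in both.

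Ranks called at 1 h were followed in the same way. At 1 h against 0 h limma called 176 regions higher (0.291%) and 184 lower (0.304%). The 176 had a median change of +1.13 from 0 h to 1 h, −0.89 from 1 h to 10 h and +0.17 from 0 h to 10 h. Of them 173 moved the opposite way after 1 h, 118 (67.0%) were called lower at 10 h against 1 h, and 7 were still called higher at 10 h against 0 h. The 184 had medians of −1.08, +0.84 and −0.28, all 184 moved the opposite way, 98 (53.3%) were called, and 4 were still called lower at 10 h against 0 h. These contrasts share the 1 h lists, so a high or low value at 1 h enters both with opposite sign, and part of a return of this kind is built in. The difference between 10 h and 0 h uses no 1 h score, and limma called 372 regions higher (0.615%) and 14 lower (0.0231%). These calls are not free of the 1 h lists. The spread of the 1 h lists enters the SE, and only regions called in both of them were tested.

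Read the other way, of the 1159 regions that ranked higher at 10 h than at 1 h, 280 were called higher against 0 h as well and 98 had been called lower at 1 h. Their median changes were −0.47 from 0 h to 1 h, +1.15 from 1 h to 10 h and +0.64 from 0 h to 10 h. Of the 684 that ranked lower, 2 were called lower against 0 h and 118 had been called higher at 1 h, with medians of +0.71, −0.98 and −0.28. The median scores of the regions that ranked higher were 0.07 and 0.05 at 0 h, −0.41 and −0.39 at 1 h and 0.78 and 0.77 at 10 h. For those that ranked lower they were 0.14 and 0.07, then 0.83 and 0.85, then −0.16 and −0.11. Since these regions were chosen by their 10 h and 1 h scores, part of the distance between 10 h and 0 h is built in as well, and these medians are a description.

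**Figure D5:**
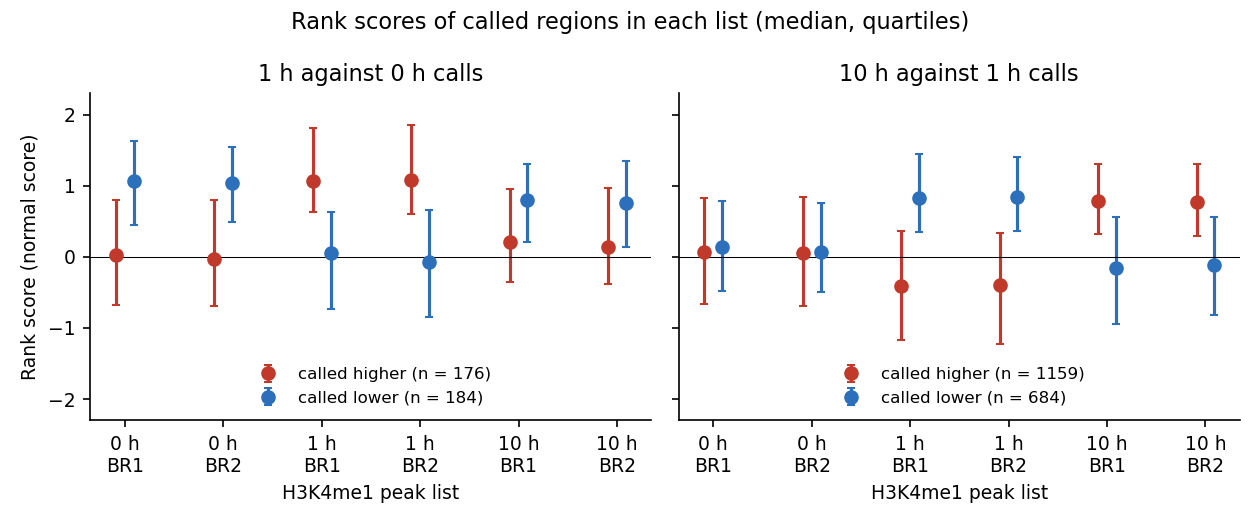
Rank scores (normal scores, vertical axis) in each of the 6 H3K4me1 lists, as medians with quartiles, for regions called at 1 h against 0 h (left, 176 higher and 184 lower) and at 10 h against 1 h (right, 1159 higher and 684 lower). On the left the medians leave and return towards their 0 h level, and on the right the 1159 lie at 0.07 and 0.05 at 0 h and at 0.78 and 0.77 at 10 h, a distance that their choice by 10 h scores partly fixes.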

How the data were processed

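The deposited files are peak lists that the authors made by ChIP-seq of wild-type HCT116 cells, with 1 list per library, broad for H3K4me1 and narrow for H3K27ac. The submitters' processing notes name MACS2 2.2.7.1 as the peak caller, after trimming with Trim Galore (version 0.6.6) and mapping to GRCh37 with Bowtie2 (version 2.3.2). For each peak the authors give the fold enrichment ratio, the −log10 p-value and the −log10 q-value, averaged over the peak by the caller in broad lists. No read counts are in the lists, so fold and p depend on each library's depth, and only presence, covered bases and ranks within a list were compared. The numbers in the peak names (2 and 3 at 1 h) differ from BR1 and BR2 in the labels, which were followed.

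Peaks of the 6 H3K4me1 lists that overlapped were merged into regions. Ranks, widths and coverage within 5000 bp of start sites (mean of at least 500 bp) were tested with limma 3.58.1 (R 4.3.3, trend) over the 6 lists, with Benjamini-Hochberg adjustment and a threshold of 0.05. Fits were tested on simulated data. A promoter is 1000 bp before to 200 bp after a start site in the hg19-mapped GENCODE annotation. Motifs were searched on both strands of hg19 in the middle 300 bp, and full elements over whole regions. Other tools were Python 3.11.15, numpy 2.4.6, pandas 2.3.3 and scipy 1.17.1.

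The regions, gene lists and rules for naming were chosen with earlier results of these data known. Named were the 5 gained and 5 lost regions of highest mean percentile, the 5 with the smallest p per direction for rank, width and start-site coverage, 12 set genes, up to 4 members of each gene list that passed or otherwise the 2 with the smallest p, and the 3 strongest 1 h gains and losses that reversed. The full elements, the start-base comparison, and the list members named for gained or ranked regions were chosen after their values were seen. The settings in the closing section were another presence threshold, joining of near peaks, another ranking, and leaving out each list. The replicate numbers did not pair the lists. A few items that these rules name are not reported here.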

Additional observations from a re-analysis of the deposited data

How the results depend on the processing

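Requiring a −log10 q of at least 5 for presence left 184 gained and 28 lost regions. It left only 14 gains at 1 h, 9 of them (64.3%) gone at 10 h. Losses at 1 h numbered 15, with 11 of them (73.3%) back at 10 h. With width tested only at regions whose mean −log10 q over the 6 lists was at least 5, 1 region was called wider. Requiring 50% of a region to be covered gave 8636 lost regions and 26.0% of losses back. Without 1 list, gained regions ranged from 4468 to 7197, lost regions from 6670 to 14513, gains gone from 52.7 to 84.3% and losses back from 14.0 to 53.7%, and fewer lists had to agree in each. Ranking by fold left 190 regions higher and 34 lower, with 100% of 6 called 1 h changes called back. Without 1 list 112 to 505 ranked higher and 53 to 207 lower. Start-site coverage had 0 higher and 0 lower with 4 lists only, without centring or within 2000 bp, and without 1 list 0 to 2 higher and 0 to 4 lower. Lists of the same number did not deviate together (r of 0.0040 for rank and −0.0185 for width between 1 h and 10 h, over 60476 regions). With the replicate number as a block, 1268 regions ranked higher and 751 lower, 1799 of 1843 calls being shared, 60.5% of 1 h rank calls were called back, and start-site coverage was higher for 10 genes and lower for 5. In settings added after the data were seen, the decamer share of gained regions was 20.0 to 21.8% without 1 list and 29.9% at the stricter q, the H3K27ac share 9.32 to 12.5%, 29.3% at that q and 17.3% at 50% covered, and the AP-1 share of lost regions 24.9 to 28.9%, 39.3% and 25.5%. With all lists, 7 p53 targets were lost at the start base, beside 905 of all genes, and without 1 list 7 to 9 targets were. Fewer lists then had to agree for every gene, so that range alone does not show how the targets stood beside all genes. No called value reversed direction. Differences in start-site coverage that were called in no setting turned sign at CDKN1A (−251 bp), BTG2 (−259 bp) and CCNB1 (−290 bp) without centring, and within 2000 bp at BTG2 (−514 bp), CDK1 (320.1 bp), RMND1 (23.1 bp) and KMT2D (87.6 bp). Without 1 list they ranged across 0 at MCM2 (−507 to 457 bp), CDK1 (−1262 to 287 bp) and BTG2 (−335 to 839 bp). The cause of these shifts was not tested, and the depth of the libraries is unknown.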
